A study of Bos taurus with 9 samples.

Results

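Transcripts of 10 genes that sense glucose and cellular energy were followed through 9 RNA sequencing libraries of bovine blastocysts. The genes were taken from the deposited table by their symbols, out of 22127 genes: the arrestins TXNIP and ARRDC4, the glucose-responsive transcription factors MLXIP, MLXIPL and MLX, the forkhead factors FOXO1, FOXO3 and FOXO4, and the AMPK catalytic subunits PRKAA1 and PRKAA2. Each symbol matched 1 gene, and all 10 passed the filter on low counts. The libraries, each of 9 to 11 pooled embryos, fell into 3 groups of 3 by the medium in which the oocytes had been matured for 24 hours inside their cumulus cells. The control medium had a glucose concentration of 5.5 mM, the low glucose medium 2.75 mM, and the third medium combined 2.75 mM glucose with 1.8 mM BHB. BHB is taken to mean beta-hydroxybutyrate, a ketone body, although the labels give only the abbreviation. All 3 media shared a TCM 199 base with serum, pyruvate, gentamicin, FSH and estradiol, and after fertilisation every embryo was cultured to day 8 in the same SOF media, so the media differed only before fertilisation. Nothing in the labels says that replicates came from separate cultures, and p-values therefore reflect the spread among these libraries alone, which may be technical.

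When glucose enters a cell and is phosphorylated, MondoA (the product of MLXIP) and ChREBP (that of MLXIPL) pair with MLX and switch on genes that carry carbohydrate response elements. TXNIP and ARRDC4 are classic targets of this switch, and the alpha-arrestins they encode restrain further glucose uptake; TXNIP also binds thioredoxin. FOXO factors are held out of the nucleus when insulin or IGF signals activate AKT, and otherwise drive genes of stress resistance, cell cycle arrest and metabolism. AMPK is a kinase of a catalytic alpha, a scaffolding beta and a nucleotide-binding gamma subunit that is activated when AMP rises, and it marks TXNIP for degradation.

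The libraries held between 55611205 and 75178898 estimated counts in all. Markers of the 3 blastocyst lineages were present in all 9 libraries, with summed levels of 13418 to 21275 CPM (estimated counts scaled to a common library size) for 11 trophectoderm genes, 1355 to 2041 CPM for the 7 epiblast genes measured and 1351 to 2068 CPM for 9 hypoblast genes. Markers of other cells were present too: 15 stromal and fibroblast genes summed to 391 to 1754 CPM, 19 cumulus and granulosa cell genes to 124 to 287 CPM and 8 leukocyte genes to 4.80 to 14.3 CPM, and no marker in the table was at 0 in all libraries. Levels of the 10 genes below are CPM on TMM library scaling and are compared between media, not between genes, since transcript lengths were not used.

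FOXO1, TXNIP and ARRDC4 were lower in blastocysts from both low glucose media than in controls, and the other 7 genes did not pass the test in any comparison. With the low glucose media joined against control, FOXO1 fell 5.11-fold, TXNIP 2.11-fold and ARRDC4 1.73-fold. In low glucose alone FOXO1 and ARRDC4 passed, and with BHB FOXO1 alone did. In edgeR's quasi-likelihood test at an adjusted p under 0.05, 2 of the 10 genes fell in low glucose, against 2.02% of all 16469 genes tested, and 1 fell with BHB, against 1.38%. Both media together gave 3, against 2.87%, and the median log2 difference was -0.06 over the 10 genes and 0.01 over all genes tested. The comparisons with control share the same 3 control libraries, so their results are not independent of each other.

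**Figure D1:**
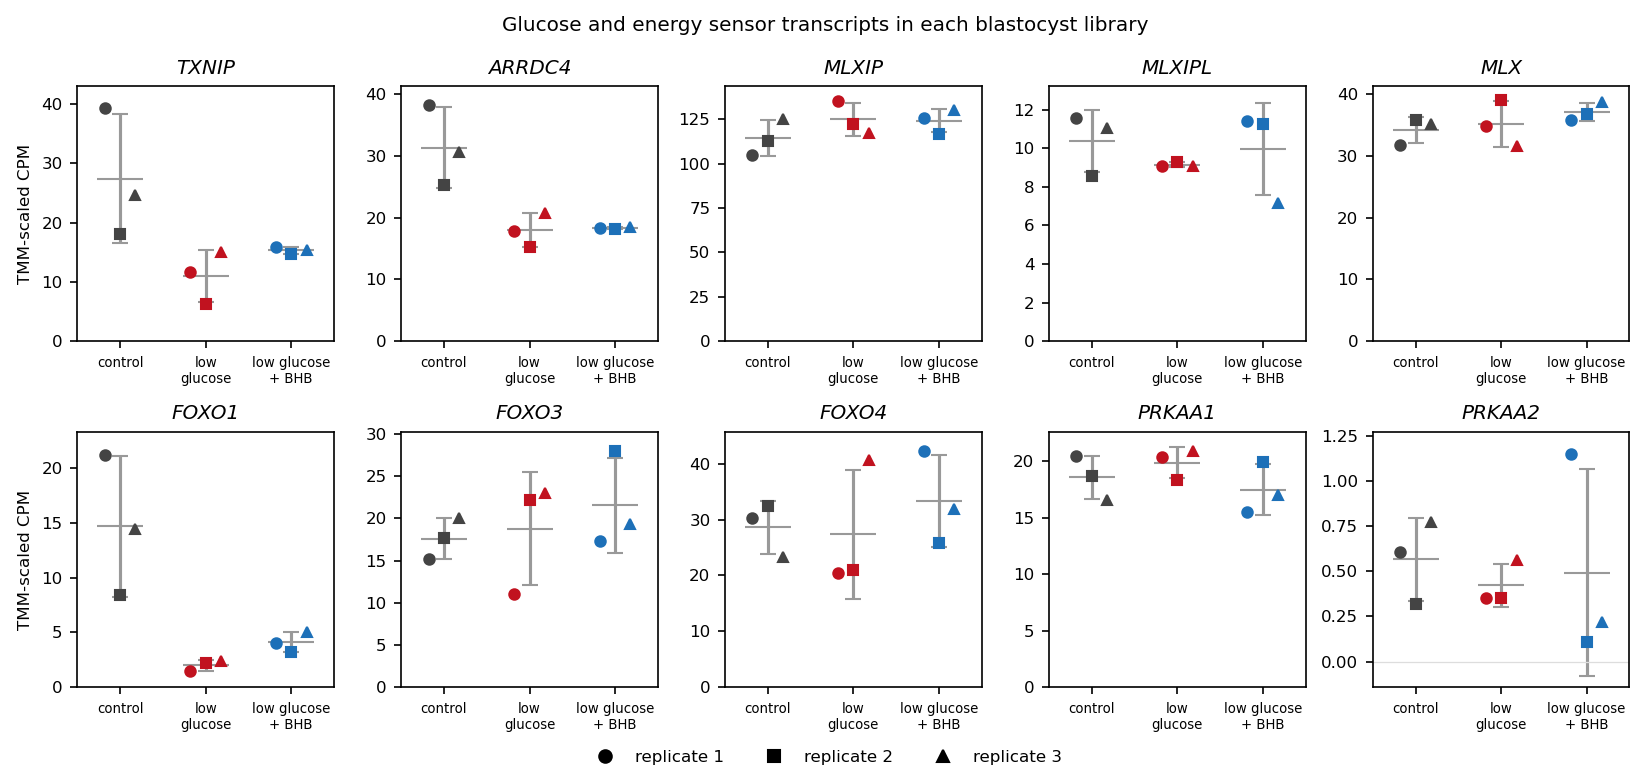
Levels of the 10 genes in each library, in TMM-scaled CPM on linear axes; symbols mark the replicate, grey lines the mean and error bars the SD of 3 libraries. The 6 libraries of the low glucose media lie below all 3 controls for TXNIP, ARRDC4 and FOXO1, while the groups overlap for most of the others.

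TXNIP, whose product binds thioredoxin and limits glucose uptake, was measured at 39.4, 18.1 and 24.7 CPM in control replicates 1, 2 and 3. Low glucose libraries held 11.7, 6.31 and 15.0 CPM, and those with BHB 15.8, 14.7 and 15.5 CPM. All 6 low glucose libraries were below the lowest control, control replicate 1 was the highest of all, and low glucose replicate 2 the lowest. The means were 27.4 ± 10.9, 11.0 ± 4.41 and 15.3 ± 0.593 CPM (SD, n = 3 each). Against control it stood at -1.31 on the log2 scale in low glucose (SE 0.313, edgeR adjusted p = 0.0575) and at -0.84 with BHB (SE 0.310, edgeR adjusted p = 0.441), neither past the threshold. For both media together it was -1.07 (SE 0.259, edgeR adjusted p = 0.0466), with a 95% interval of 0.321 to 0.701 times the control level, and 6.70% of all genes tested were lower still. That call was lost without control replicate 1 (-0.72) or 3 (-1.13), low glucose replicate 1 (-1.08) or 2 (-0.92), or any of the BHB replicates (-1.06 to -1.09). In low glucose alone the call was gained without a filter on low counts, without control replicate 2 (-1.54), without low glucose replicate 3 (-1.60) and in DESeq2 (adjusted p = 0.000995).

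ARRDC4, an arrestin related to TXNIP, stood at 38.2, 25.2 and 30.6 CPM in the controls. It stood at 17.9, 15.2 and 20.7 CPM in low glucose and at 18.3, 18.2 and 18.5 CPM with BHB. The low glucose libraries again lay below every control, and the 3 libraries with BHB lay within 1 CPM of each other, with a coefficient of variation of 0.842%. The log2 fold change was -0.81 (SE 0.174, edgeR adjusted p = 0.0320) in low glucose, -0.77 (SE 0.174, edgeR adjusted p = 0.0544) with BHB and -0.79 (SE 0.146, edgeR adjusted p = 0.00938) for both. For both media the interval ran from 0.464 to 0.722 times control. The call in low glucose was lost without control replicate 1 (-0.64) or 3 (-0.80), low glucose replicate 1 (-0.79) or 2 (-0.69) or BHB replicate 3 (-0.81), and in a fit of only the 6 libraries compared (adjusted p = 0.0541), and the call for both media without control replicate 1 (-0.62) or 3 (-0.79). With BHB the call was gained in DESeq2 (adjusted p = 0.00350), without a filter (0.0415), at a mean count of at least 50 (0.0482), and without control replicate 2 (-0.91) or low glucose replicate 3 (-0.77).

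The arrestin pair varied together. In the controls replicate 1 was highest and replicate 2 lowest for both genes, and in low glucose replicate 3 was highest and replicate 2 lowest for both. Pearson's r of log2 CPM was 0.918 over the 9 libraries, and 0.965 for deviations from the mean of each medium, given as a description because the libraries share their media and their scaling. Such likeness was not particular to the pair, since ARRDC4 and FOXO1 gave 0.904 over the 9 libraries and 0.689 for deviations. MLX deviated the other way, at -0.913 with TXNIP and -0.845 with ARRDC4. The log2 ratio of ARRDC4 to TXNIP counts averaged 0.25 ± 0.268 in control and 0.52 ± 0.395 in the 6 low glucose libraries (SD), a difference of 0.27 that did not pass an exact permutation test (two-sided p = 0.310, adjusted p = 0.413 over 4 ratios). Low glucose replicate 2, at 1.27, had the highest ratio.

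MLXIP, which encodes MondoA, stood at 105, 113 and 125 CPM in the controls, 135, 122 and 117 CPM in low glucose and 126, 117 and 130 CPM with BHB. MLX, the shared partner, stood at 31.8, 35.7 and 35.2 CPM, 34.8, 39.0 and 31.6 CPM, and 35.8, 36.7 and 38.7 CPM in the same order. MLXIPL, which encodes ChREBP, stood at 11.5, 8.56 and 11.0 CPM, 9.07, 9.30 and 9.08 CPM, and 11.4, 11.2 and 7.18 CPM. The groups overlapped for all 3 factors, except that all MLX libraries with BHB were above all controls, by 0.12 on the log2 scale (SE 0.125, edgeR adjusted p = 0.948), where 4.77% of all genes showed such a separation. None of the factors passed. For both low glucose media against control, the 95% interval of the ratio to control was 0.941 to 1.26 for MLXIP, 0.894 to 1.24 for MLX and 0.697 to 1.21 for MLXIPL. The log2 ratio of MLXIPL to MLXIP counts differed by -0.25 between the low glucose libraries and control (exact permutation test, two-sided p = 0.310, adjusted p = 0.413).

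FOXO1, a forkhead factor excluded from the nucleus by AKT, had the largest difference of the 10 genes against control, in each low glucose medium and in both together. It stood at 21.2, 8.39 and 14.4 CPM in control replicates 1, 2 and 3. It stood at 1.44, 2.17 and 2.41 CPM in low glucose and at 4.07, 3.20 and 5.07 CPM with BHB. No library of a low glucose medium reached the lowest control, and every library with BHB was above every library of low glucose alone. The estimated counts behind these levels ran from 94 to 1263 per library. FOXO1 fell 7.32-fold in low glucose, or by 2.87 on the log2 scale (SE 0.354, edgeR adjusted p = 0.00165), and 1.02% of genes tested had a lower value. With BHB it fell 3.57-fold, by 1.84 on the log2 scale (SE 0.338, edgeR adjusted p = 0.0191), and for both media by 2.35 (SE 0.274, edgeR adjusted p = 0.000490), with an interval of 0.129 to 0.296 times control. The calls for low glucose and for both media held in all 16 and all 15 alternatives run, with log2 values of -3.15 to -2.51 and -2.63 to -1.99, whereas the call with BHB was lost without control replicate 1 (-1.47) or 3 (-1.83) or any BHB replicate (-1.83, -1.68 and -2.01).

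**Figure D2:**
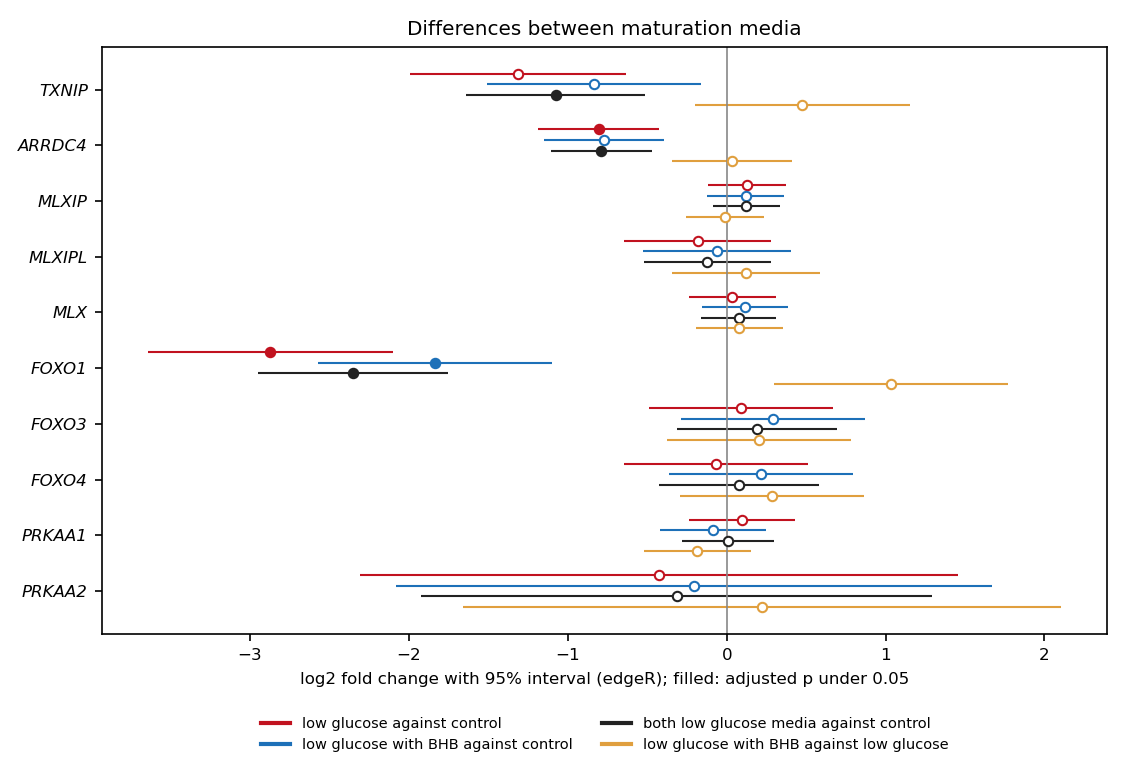
Log2 fold changes of the 10 genes in the 4 comparisons, with 95% intervals from edgeR's quasi-likelihood fit of all 9 libraries; filled symbols passed an adjusted p of 0.05. FOXO1 (-2.87 in low glucose, -1.84 with BHB) lies farthest from 0, followed by TXNIP and ARRDC4, and PRKAA2 has the widest intervals.

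FOXO3 and FOXO4, factors with the same DNA-binding domain family, did not follow FOXO1. FOXO3 stood at 15.2, 17.7 and 20.0 CPM in the controls, 11.0, 22.2 and 23.0 CPM in low glucose and 17.4, 28.0 and 19.3 CPM with BHB. FOXO4 stood at 30.2, 32.4 and 23.3 CPM, 20.5, 20.9 and 40.7 CPM, and 42.2, 25.8 and 31.9 CPM. Groups overlapped for both, and the spread within the low glucose media was wider than in control, with coefficients of variation of 35.8% and 26.1% against 13.7% for FOXO3 and of 42.2% and 24.8% against 16.5% for FOXO4. For both media against control, FOXO3 stood at 0.19 (SE 0.232) and FOXO4 at 0.08 (SE 0.231), with intervals of 0.804 to 1.62 and 0.744 to 1.49 times control. The log2 ratio of FOXO1 to FOXO3 counts was -0.35 ± 0.783 in control (SD, n = 3) and -2.77 ± 0.612 in the 6 low glucose libraries. These did not overlap, and the difference of -2.42 had the smallest p that the 84 arrangements allow (exact permutation test, two-sided p = 0.0238). The adjusted p over the 4 ratios was 0.0952, so it did not pass. A lone ratio fully apart could not pass with this number of libraries, so the missed threshold carries no information here.

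**Figure D3:**
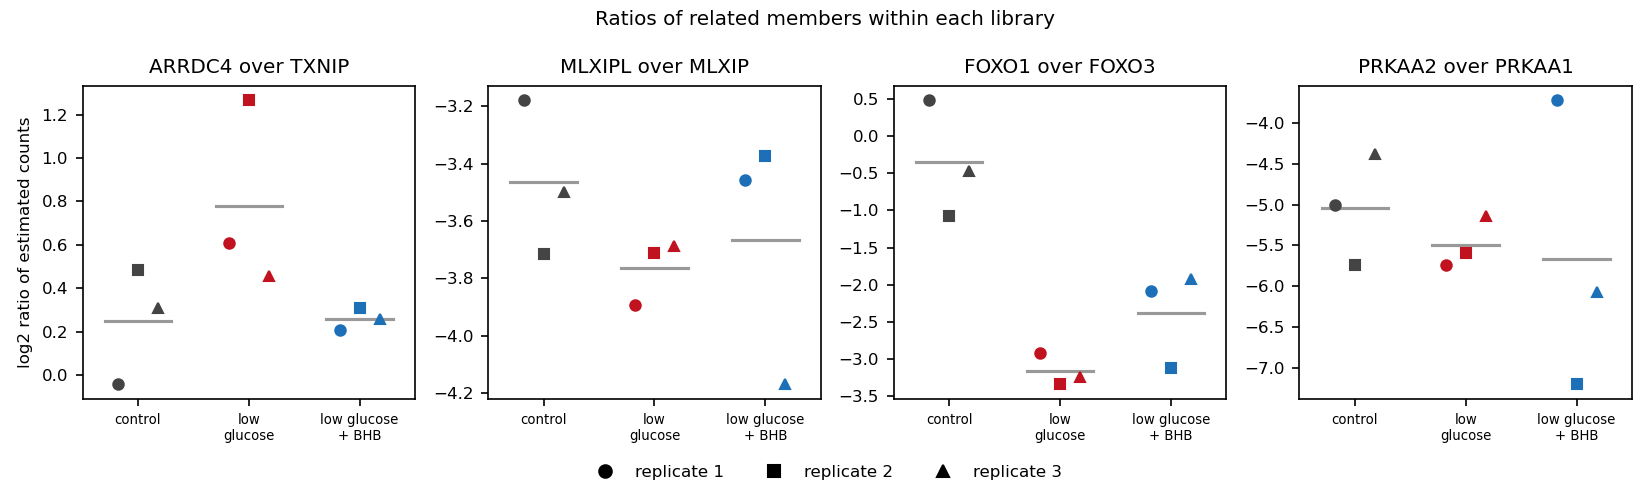
Log2 ratios of estimated counts between related genes in each library; symbols mark the replicate and grey lines the mean of 3 libraries. The ratio of FOXO1 to FOXO3 is at least -1.07 in every control and at most -1.92 in every other library, whereas the other 3 ratios overlap between control and the low glucose media.

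PRKAA1, which encodes the alpha-1 catalytic subunit of AMPK, stood at 20.4, 18.7 and 16.6 CPM in the controls, 20.4, 18.3 and 20.9 CPM in low glucose and 15.5, 19.9 and 17.0 CPM with BHB. For both media against control it stood at 0.01 (SE 0.133, edgeR adjusted p = 0.996), with an interval of 0.822 to 1.23 times control. PRKAA2, which encodes alpha-2, was scarce, with 36, 23 and 52 estimated counts in control, 23, 25 and 33 in low glucose and 70, 8 and 12 with BHB. The groups overlapped for both catalytic subunits. For both media the interval for PRKAA2 ran from 0.264 to 2.45 times control, and the missed threshold does not show that its levels were alike. BHB replicate 1 held 70 of the 90 counts in its group, and without it the log2 value with BHB against control moved from -0.20 to -1.79. The log2 ratio of PRKAA2 to PRKAA1 counts differed by -0.54 (exact permutation test, two-sided p = 0.524, adjusted p = 0.524).

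Between the low glucose media, which differ only in BHB, none of the 10 genes passed edgeR's test, and no gene of 16469 did (0%). At an unadjusted p under 0.05 there were 270 genes (1.64%), among them FOXO1 alone of the 10. With the replicate number as a block, a pairing that the labels do not state, there were 340 genes and 2 of the 10, FOXO1 and TXNIP, and still no call. TXNIP then stood at 0.56 (edgeR unadjusted p = 0.0399, adjusted p = 1.00), whereas without the block its edgeR unadjusted p was 0.150. DESeq2 called 2 genes and limma-voom 0, in each case none of the 10. FOXO1 stood 2.05-fold higher with BHB, at 1.04 on the log2 scale (SE 0.338, 95% interval 1.23 to 3.42 times low glucose, unadjusted p = 0.00979, edgeR adjusted p = 1.00). Its groups did not overlap, as for 2.96% of all genes in that direction. TXNIP stood at 0.48 (SE 0.310), or 0.871 to 2.22 times its level in low glucose, and ARRDC4 at 0.03 (SE 0.174), or 0.787 to 1.33 times. These intervals are of the difference between the media, and the missed threshold does not show that the levels were alike.

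The groups of TXNIP, ARRDC4 and FOXO1 did not overlap with control in either low glucose medium, and neither did those of 8.85% of all genes, lower in low glucose, of 8.56%, lower with BHB, and of 5.56%, lower in all 6 libraries. Markers of stromal cells were lower in the same libraries. The marker lists were chosen with earlier results of these data known. The 15 stromal and fibroblast markers summed to 1008 to 1754 CPM in the controls. They summed to 445 to 665 CPM in low glucose and 391 to 623 CPM with BHB. In both media together 10 of them fell, against 2.87% of all genes tested, with a list median of -1.71. The 19 cumulus and granulosa cell markers summed to 276 to 287, 124 to 239 and 143 to 243 CPM. In both media together 4 of them fell, against the same 2.87%. The list medians were -0.86 in low glucose, -0.87 with BHB and -0.96 for both. The 4 were NR5A1 (-2.36), GJA1 (-2.21), NR5A2 (-1.54) and INHBB (-0.96). At an unadjusted p under 0.05 there were 10 lower and 0 higher of the 19, against 7.04% and 1.66% of all genes tested. Control replicate 1 held both the highest stromal sum and the most TXNIP, ARRDC4 and FOXO1, while controls 2 and 3 had nearly equal stromal sums (1008 and 1017 CPM) and FOXO1 at 8.39 and 14.4 CPM. Low glucose replicate 3 held the most TXNIP, ARRDC4 and FOXO1 of its group and the lowest cumulus and granulosa sum. For deviations from the mean of each medium, Pearson's r with the stromal sum was 0.63, 0.60 and 0.15 for TXNIP, ARRDC4 and FOXO1. With the cumulus and granulosa sum it was -0.44, -0.40 and -0.45. It was 0.66, 0.61 and 0.59 with the leukocyte sum and -0.69, -0.68 and -0.61 with the trophectoderm sum. With the epiblast sum it was -0.06, -0.08 and 0.04, and with the hypoblast sum -0.37, -0.28 and -0.19. Trophectoderm sums were 13418 to 18423 CPM in the controls, 16383 to 19116 in low glucose and 16695 to 21275 with BHB. None of these 11 markers passed for both media, and their list median was 0.22. The part of these markers in the results was not tested, and in pooled embryos fewer cells of a type and less RNA per cell cannot be told apart.

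**Figure D4:**
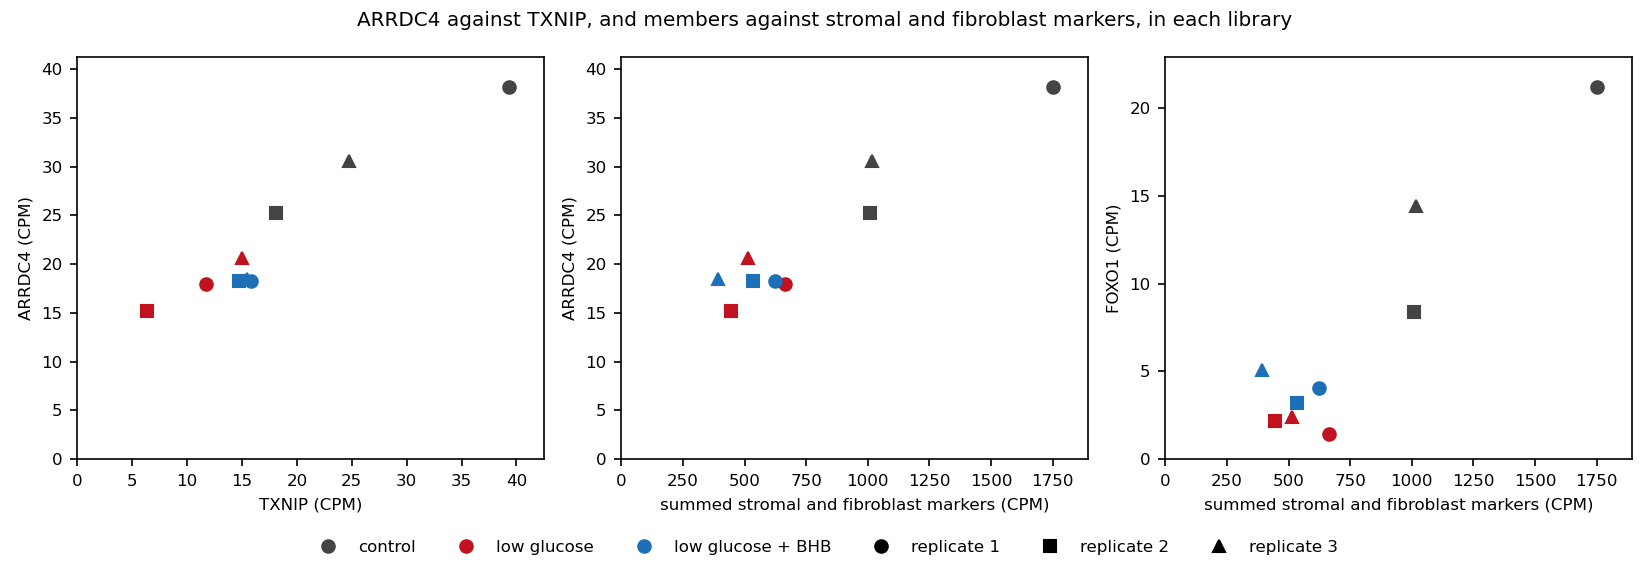
Levels per library in TMM-scaled CPM on linear axes: ARRDC4 against TXNIP, then ARRDC4 and FOXO1 against the sum of 15 stromal and fibroblast markers; colours mark the medium and symbols the replicate. The 3 controls hold 1008 CPM or more of stromal markers and hold the most of all 3 genes, and the 6 other libraries reach at most 665 CPM.

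Genes whose log2 CPM was most like that of a member over the 9 libraries were listed by Pearson's r, as a description in which the libraries share their media and scaling. For FOXO1 these were PAQR7 (0.989), AEBP1 (0.978), CCDC69 (0.968), NYNRIN (0.968) and TAPBPL (0.963). For TXNIP they were TNFAIP8L1 (0.965), TRIP6 (0.943), MDGA1 (0.942), DNM1 (0.939) and ARHGEF6 (0.936). For ARRDC4 they were CLU (0.987), CDH11 (0.976), VAT1L (0.974), SPRY1 (0.971) and LXN (0.970). For deviations from the mean of each medium every r was lower, from 0.647 (TAPBPL with FOXO1) to 0.947 (PAQR7 with FOXO1). CLU encodes the secreted chaperone clusterin, CDH11 a cadherin of mesenchymal cells and AEBP1 a protein of the extracellular matrix. The other listed genes are not described here.

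Around these sensors, 151 further genes of their pathways were listed, and 144 were tested. For both low glucose media against control, 5 fell and none rose in edgeR, or 3.47% against 2.87% of all genes, and the median log2 difference was 0.02 against 0.01. The same 5 genes were called by DESeq2 and by limma-voom. They are IRS1, BCL6, RBL2, PRKAG2 and NUAK1. In low glucose alone 4 of them fell (all but RBL2), and with BHB 2 did (BCL6 and PRKAG2).

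The other AMPK subunits differed among themselves. PRKAG2, a gamma subunit gene, stood at 10.7, 11.5 and 15.2 CPM in the controls, 6.67, 6.50 and 5.24 CPM in low glucose and 4.76, 6.56 and 6.64 CPM with BHB. Every low glucose library was below every control. It fell by 1.02 in low glucose (SE 0.221, edgeR adjusted p = 0.0312), by 1.06 with BHB (SE 0.221, edgeR adjusted p = 0.0356) and by 1.04 for both (SE 0.184, edgeR adjusted p = 0.00654). The 3 other tested beta and gamma subunits, PRKAB1, PRKAB2 and PRKAG1, stood at 0.18, -0.00353 and -0.18 for both media, and PRKAG3 was too low to be tested. NUAK1, an AMPK-related kinase gene, was the single fall among 11 tested kinases of that family. It stood at 6.07, 5.31 and 8.49 CPM in the controls, 0.886, 0.971 and 1.49 CPM in low glucose and 0.886, 3.59 and 1.98 CPM with BHB, and changed by -2.09 for both media (SE 0.363, edgeR adjusted p = 0.00609). Without control replicate 3 both calls for both media were lost (PRKAG2 -0.86, NUAK1 -1.86). Within single media, PRKAG2 lost its call in low glucose without control replicate 2 (-1.08) or 3 (-0.84) or any low glucose replicate (-1.07, -1.06 and -0.92), and its call with BHB without any library except low glucose replicate 3 (range -1.16 to -0.88), while NUAK1 lost its call in low glucose without control replicate 3 (-2.33) or low glucose replicate 1 (-2.41) or 2 (-2.47).

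No gene passed in the lists of AMPK upstream genes and AMPK substrates, which do not hold TXNIP. Of 13 upstream kinases, phosphatases and scaffolds, edgeR, DESeq2 and limma-voom each called 0 for both media, with 0 at an unadjusted p under 0.05 and log2 differences from -0.10 to 0.17. Of 21 substrates the same tools called 0, also 0 unadjusted, with values from -0.22 to 0.32.

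Among 25 regulators of the FOXO factors, IRS1, the insulin receptor substrate that relays insulin and IGF signals, was the single fall. It stood at 22.6, 21.3 and 23.1 CPM in the controls, 13.7, 15.2 and 11.1 CPM in low glucose and 12.5, 16.0 and 16.9 CPM with BHB, with every control above every other library. It changed by -0.74 in low glucose (SE 0.171, edgeR adjusted p = 0.0469) and by -0.65 for both (SE 0.144, edgeR adjusted p = 0.0282). The call in low glucose was lost without any library except BHB replicate 1 (range -0.84 to -0.63). The list median was 0.02 for both media.

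Among 30 tested genes known as FOXO targets, 2 fell, and the list median was -0.04 for both media. BCL6, a transcriptional repressor gene, stood at 13.2, 11.9 and 17.9 CPM in the controls, 3.88, 2.84 and 2.22 CPM in low glucose and 2.92, 5.51 and 5.58 CPM with BHB. It fell by 2.26 in low glucose (SE 0.309, edgeR adjusted p = 0.00237), by 1.62 with BHB (SE 0.302, edgeR adjusted p = 0.0201) and by 1.94 for both (SE 0.246, edgeR adjusted p = 0.000749), and the call for both held in all 15 alternatives, while the call with BHB was lost without control replicate 1 (-1.67) or 3 (-1.41) or BHB replicate 1 (-1.37) or 3 (-1.76). RBL2, a pocket protein gene of cell cycle arrest, stood at 10.8, 8.64 and 9.97 CPM in the controls, at 6.57, 6.80 and 5.39 CPM in low glucose and at 4.95, 6.32 and 5.00 CPM with BHB. It changed by -0.75 for both media (SE 0.174, edgeR adjusted p = 0.0370). The call for both media was lost for RBL2 without any of 8 libraries (all but BHB replicate 2, range -0.83 to -0.68) and for IRS1 without any of 5 (control replicates 1, 2 and 3 and low glucose replicates 1 and 3, range -0.69 to -0.59).

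The lists nearest to the arrestins held no call, and 8.7% of all genes tested for both media had an unadjusted p under 0.05. The arrestin and thioredoxin list had 11 tested genes and also held ITCH, NEDD4L, NLRP3 and DDIT4, which belong to neither family. Of the 11, edgeR, DESeq2 and limma-voom called 0 for both media. At an unadjusted p under 0.05, 1 was higher, and values ran from -0.10 to 0.27. ARRDC1, ARRDC2 and ARRDC3, the other alpha-arrestins tested, stood at 0.24, 0.10 and -0.00207, values read after they were seen. Of 11 genes of the MLX and MAX network the tools called 0, with 1 lower unadjusted. Of 18 tested ChREBP targets of lipid and sugar metabolism they called 0, with 1 lower unadjusted, a median of 0.02 and values from -0.59 to 0.82.

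**Figure D5:**
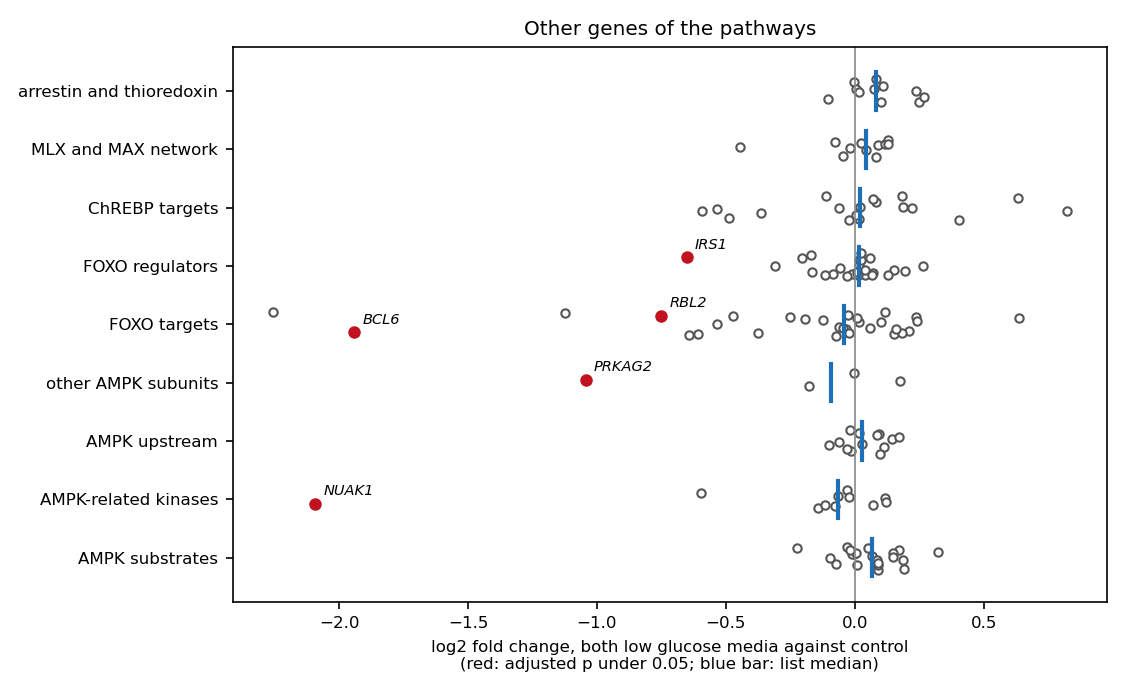
Log2 fold changes of 144 tested pathway genes for both low glucose media against control, by list; red symbols passed an adjusted p of 0.05 in edgeR and blue bars are list medians. IRS1, BCL6, RBL2, PRKAG2 and NUAK1 passed, all lower, and the list medians lie between -0.09 and 0.08.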

How the data were processed

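The values are estimated counts, as the authors deposited them for each gene, and 19.2% of them are not whole numbers (tolerance 1e-06). The submitters' processing notes name the tools fastp, kallisto and DESeq2 and the build bosTau9, but roles, versions and annotation are not given in the sources used. The labels' protocols describe poly(A) selection. Groups came from sample titles and columns from descriptions. The estimated counts were rounded and fitted in edgeR 4.0.16 (R 4.3.3) over all 9 libraries with 3 group means, filterByExpr (minimum count 10, minimum total 15), TMM factors, a quasi-likelihood test, two-sided, and Benjamini-Hochberg adjustment over 16469 genes at 0.05. SE came from the fold change and F statistic. Ratios of gene pairs used counts plus 2 and exact permutation tests (scipy 1.17.1). Likeness used log2 CPM (prior count 2) and genes of at least 1 CPM. The steps were tested on simulated data.

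Named were all 10 members, up to 3 passing genes per pathway list and comparison, and the 5 most alike genes of TXNIP and each member past the threshold. The members, the 9 pathway lists and the 6 marker lists were chosen with earlier results of these data known. Of 151 pathway genes, 149 were in the table. Gene symbols came from the table, or for NUAK2, SIK1 and UTF1 from RefSeq's ARS-UCD2.0 gene table, used for names alone. Kallisto shares reads between similar copies by estimation. Deviations of same-numbered replicates of the low glucose media correlated weakly (0.115, 0.243 and 0.102). Libraries with different numbers were not compared in this way, and the labels state no pairing. Whether the numbers pair these libraries is therefore not settled, and the replicate block is only an alternative. Alternatives were RLE factors, other filters, leaving out each library, a fit restricted to the compared libraries, a replicate block, limma-voom (limma 3.58.1) and DESeq2 1.42.0. PRKAA2 had the fewest counts of the 10 genes and the widest intervals.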

Additional observations from a re-analysis of the deposited data

How the results depend on the processing

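Members called numbered 2 in low glucose, 1 with BHB and 3 in both media. In low glucose the count was 1 with only the libraries compared. With BHB it was 2 without a filter, at a mean count of at least 50, with the replicate block and in DESeq2. Leaving out each library gave 1 to 3, 0 to 2 and 1 to 3, and 0 between the low glucose media. DESeq2 called 581 genes in low glucose, 441 with BHB and 2 in BHB against low glucose, compared with 334, 228 and 0 in edgeR; leaving out each library gave 196 to 391, 91 to 257 and 0, and 294 to 476 for both media against 473. Log2 values near 0 changed sign: PRKAA1 in both media to -0.00487 at a mean count of at least 50, and PRKAA2 between the low glucose media to -0.28 with the replicate block and -0.48 in limma-voom. PRKAA2 was not tested at a mean count of at least 50. The same happened when a library was left out, with values of -0.037 to 0.11 for MLX, -0.082 to 0.38 for FOXO3 and -0.47 to 0.12 for FOXO4 in low glucose, -0.18 to 0.13 for MLXIPL and -1.79 to 0.27 for PRKAA2 with BHB, -0.071 to 0.15 for ARRDC4, -0.054 to 0.045 for MLXIP, -0.074 to 0.37 for FOXO3, -1.37 to 0.70 for PRKAA2 and -0.14 to 0.10 for PRKAG2 between the low glucose media, and -0.12 to 0.18 for FOXO4 and -0.052 to 0.081 for PRKAA1 in both media; the cause was not tested. With the replicate block, TXNIP in low glucose (-1.32, edgeR adjusted p = 0.0137) and ARRDC4 with BHB (-0.75, edgeR adjusted p = 0.0362) passed and IRS1 in low glucose (-0.75, edgeR adjusted p = 0.0509) did not. The block gave 405 genes in low glucose, 278 with BHB, 551 in both media and 0 in BHB against low glucose, and changed no other call of a member. Against control, only replicate 1 correlated over 0.1 in its deviations (0.131 and 0.144), and whether same-numbered libraries share more than a number is not known. Listed pathway genes called were 1 with only the libraries compared and 4 in DESeq2 for BHB against 2; without single libraries they numbered 1 to 4 in low glucose, 0 to 2 with BHB and 1 to 5 in both media, the 1 in both media without control replicate 3. The exact tests of the 4 ratios passed in no alternative. A lone ratio fully apart could not pass with all libraries or with fewer, so this carries no information for FOXO1 to FOXO3.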
